A study of Gallus gallus with 6 samples.

Results

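Solute carriers are membrane proteins that move amino acids, sugars, ions, metals, vitamins and transmitters across the plasma membrane or into vesicles and organelles. The members described here are the gene symbols of the count table that begin with SLC, a family number, the letter A and a member number. The mitochondrial SLC25 family and the glucose carriers SLC2A1 and SLC2A3 were left out. This gave 79 of the 6789 genes in the table, and 1 of them, SLC7A6OS, is named for its position opposite a carrier gene and is not a carrier by name. A further 11 symbols of the wider SLC naming scheme, such as SLC35B1 and SLCO4A1, do not follow the pattern and were not members. Carriers whose symbols are not in the count table could not be assessed, so the classes cover only those present in it.

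The RNA came from Hes5.3+ cells that flow cytometry sorted out of chick retinas at embryonic day 5 (E5). In the RA group, 3 libraries were made from retinas kept for 8 h in medium containing 2.5 µM retinoic acid (RA). In the control group, 3 libraries were made from retinas kept as long in the same serum-containing medium with the solvent DMSO. Each library pooled 2 retinas of different embryos, and each control library came from the opposite eyes of the embryos of an RA library, so the libraries form pairs 1, 3 and 4. The labels do not describe how Hes5.3 was made visible for sorting, and 8 h in culture is a short exposure of an isolated tissue.

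Carriers differ in what drives them. Many amino acid and transmitter carriers couple uptake to the sodium gradient, which the sodium-potassium pump maintains. Exchangers swap a solute inside for another outside, and vesicular carriers use the proton gradient that the vacuolar proton pump sets up. In the developing retina, carriers feed dividing progenitors with amino acids, glucose and monocarboxylates, and vesicular and reuptake carriers of transmitters are typical of neurons and glia that appear later.

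Library totals ranged from 19808063 to 27235633 counts, and RA libraries had both the lowest (pair 3) and the highest (pair 1). Retinal progenitor markers were present, with 10 of 11 listed genes in the table and a summed level of 8187 to 9800 CPM, the counts scaled to a common library size, in RA libraries and 7867 to 8655 CPM in control libraries. Of that list 1 gene was called, SFRP1, higher with RA in each pair (log2 fold change 0.38, edgeR adjusted p = 0.00578). At an unadjusted edgeR p under 0.05 the list had 4 of its 10 genes tested, where 8.89% of all genes tested were. SFRP1, SIX6 and HES5 were higher and PAX6 was lower with RA in each pair. The log2 fold changes were 0.22 for SIX6, 0.27 for HES5 and -0.14 for PAX6 (edgeR adjusted p = 0.263, 0.504 and 0.557). The symbol HES5 was at 24.9, 62.5 and 53.3 CPM in the RA libraries of pairs 1, 3 and 4 and 21.0, 51.9 and 43.8 CPM in the control libraries. Whether it is the gene used for the sort was not tested. CYP26A1, the enzyme that breaks down RA and a known target of it, was at 2942, 2286 and 3901 CPM in RA libraries and 81.1, 73.5 and 86.1 CPM in control libraries, so every RA library lay far above every control library (log2 fold change 5.22). Of other cell types, the newborn neuron and ganglion cell list had 10 of 13 genes in the table. It summed to 1493 to 1666 CPM in RA libraries and 1485 to 1640 CPM in control libraries, with 0 genes called. At an unadjusted edgeR p under 0.05 it had 2, ISL1 higher and ELAVL4 lower with RA in each pair. The photoreceptor and other retinal neuron list summed to 55.3 to 67.1 CPM in RA libraries and 45.1 to 65.8 CPM in control libraries. It had 0 genes called and 1 at an unadjusted edgeR p under 0.05, OTX2, higher in each pair (log2 fold change 0.55, edgeR adjusted p = 0.283). PROX1 was lower in each pair (log2 fold change -0.45). The mesenchyme list summed to 26.8 to 51.2 CPM in RA libraries and 26.0 to 37.8 CPM in control libraries, with DCN at 0 throughout. Of that list POSTN rose with RA, at 10.97, 23.8 and 24.4 CPM in RA libraries and 6.53, 10.95 and 7.64 CPM in control libraries (log2 fold change 1.19, edgeR adjusted p = 0.00753), and PDGFRA was at 1.88 to 2.36 CPM in RA libraries and 0.643 to 1.79 CPM in control libraries. COL3A1 went the other way, lower with RA in each pair (log2 fold change -0.33, edgeR adjusted p = 0.717). COL1A2 was near level (log2 fold change -0.05), and COL6A1, with few counts, was fitted lower. The median log2 fold change of the 5 genes tested was -0.05. The lens list summed to 60.3 to 89.0 CPM in RA libraries and 55.7 to 65.6 CPM in control libraries, with 0 genes called. It had 2 at an unadjusted edgeR p under 0.05, CRYAA and ASL1, both higher with RA in each pair. The blood and endothelium list had 5 of 12 genes in the table, and only 1 of them, KDR, was tested. It summed to 67.8 to 97.5 CPM in RA libraries and 98.0 to 139.7 CPM in control libraries, nearly all of it KDR. The globins HBE and HBM were at 0, and HBZ had 2 counts in the RA library of pair 1 and 0 elsewhere. KDR was lower with RA in each pair (log2 fold change -0.47, edgeR adjusted p = 0.0127). CDH5 of the same list was at most 0.874 CPM in any library, and which cells the KDR reads came from was not tested. The part of these cells in the members' levels was not tested. Because these are bulk samples, fewer cells of a type and less RNA per cell cannot be told apart.

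Of the 79 members, 55 were expressed, taken as a mean over the 6 libraries of more than 1 CPM. Among the expressed, 16 lay between 1 and 10 CPM, 24 between 10 and 100 CPM, and 15 above 100 CPM, with 3 of those above 1000 CPM. SLC11A1, a metal carrier of phagocyte vesicles, lay just inside the threshold at 1.03 CPM, and SLC15A2, a peptide carrier, just outside it at 0.998 CPM. CPM is not corrected for transcript length, so levels are compared here within a gene and with the threshold, not between genes. All members together took 0.903% to 1.03% of the counts in RA libraries and 0.860% to 0.933% in control libraries. The 3 members with the most reads, SLC7A5, SLC38A2 and SLC16A1, held 56.5% to 56.9% of the members' reads in RA libraries and 55.5% to 58.2% in control libraries, and SLC7A5 alone between 22.9% and 25.5%.

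**Figure D1:**
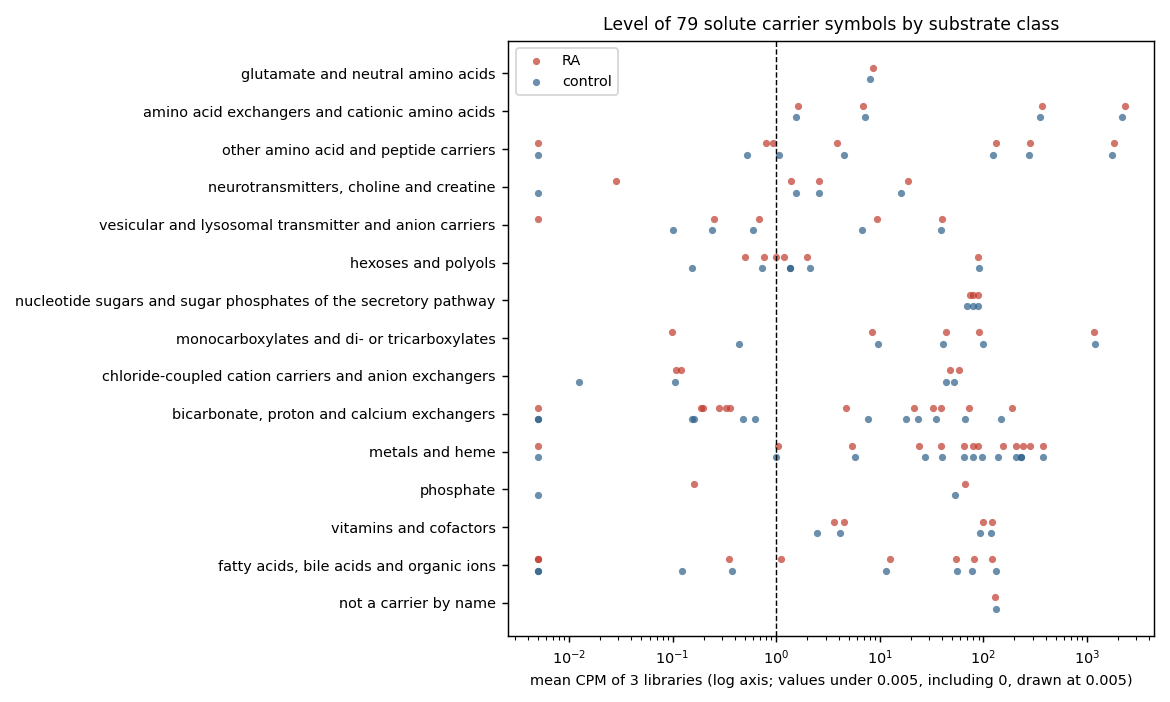
Mean level of the 79 members by substrate class, as CPM on a log axis, with each red point the mean of the 3 RA libraries and each blue point the mean of the 3 control libraries; the dashed line marks 1 CPM, and means under 0.005 CPM are drawn at 0.005. The 3 members above 1000 CPM are SLC7A5, SLC38A2 and SLC16A1, and the metal class has 12 of its 13 members above the line.

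The main comparison asked whether RA changed any of these carriers within the pairs. With edgeR's quasi-likelihood test and the pair as a block, 0 of the 61 members tested had a Benjamini-Hochberg adjusted p under 0.05, where 1.07% of all 5041 genes tested did. The smallest adjusted p of a member was 0.118. DESeq2 called 1 member, SLC9A8, and limma-voom called 0. At an unadjusted edgeR p under 0.05 there were 5 members, or 8.20% of those tested, against 8.89% of all genes tested. All 5 were higher with RA, and over all genes 5.73% were higher at that p. The share of members at this p was thus near that of all genes.

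The intervals show which sizes of change remain possible for each member. Each of the 39 members above 10 CPM had a 95% interval of its fold change within 2-fold in either direction, and 36 of them had one within 1.5-fold. Their fitted log2 fold changes ran from -0.22 to 0.46, with a median standard error of 0.09. The 16 expressed members at 10 CPM or less had a median standard error of 0.39, and for 10 of them the interval reached beyond 2-fold, so these libraries do not exclude a change of that size. Over the 55 expressed members the median log2 fold change was 0.01 (-0.05 without pair 1), with 30 fitted higher and 25 lower. The median over all genes tested was -0.01.

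**Figure D2:**
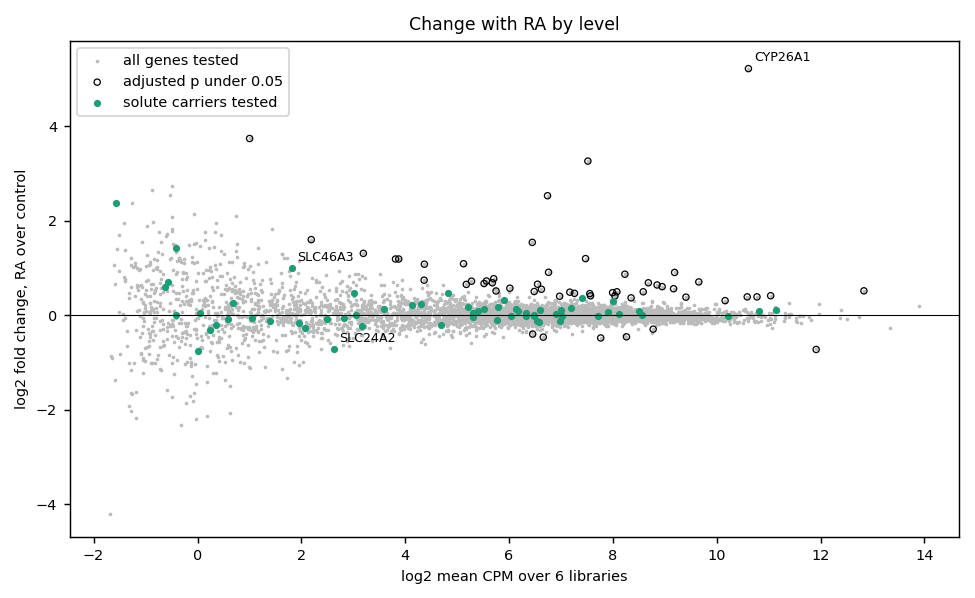
Log2 fold change of RA over control against log2 mean CPM for the 5041 genes tested (grey), the genes with an adjusted p under 0.05 (open circles) and the 61 members tested (green). The members lie along the line of no change within the cloud of all genes, and none of the green points is circled.

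**Figure D3:**
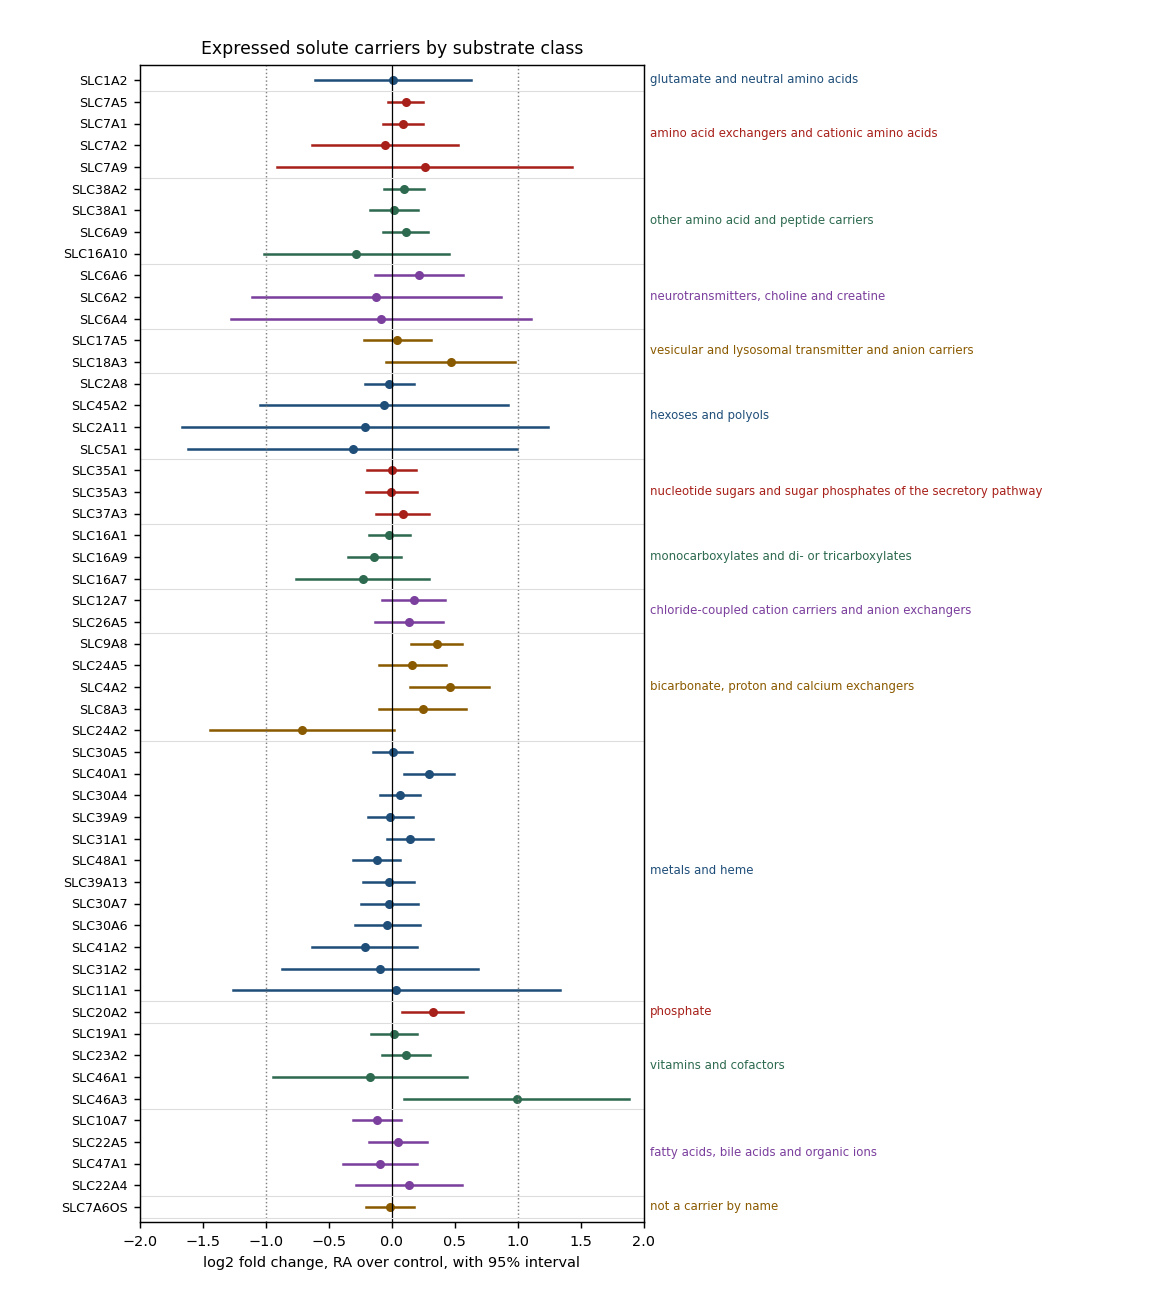
Fitted log2 fold change of RA over control with its 95% interval (edgeR quasi-likelihood fit with the pair as a block) for 53 of the 55 expressed members, grouped by substrate class; dotted lines mark a 2-fold change. The intervals of 5 members lie wholly above 0, and wide intervals belong to members of low level.

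Carriers that set pH, bicarbonate and calcium held 12 members, 6 of them expressed. Of these 6, 5 were fitted higher and 1 lower, with a class median log2 fold change of 0.20, and 4 were higher in each of the 3 pairs. These 4 include SLC24A5 and SLC8A3, whose log2 ratios in pair 3 were only 0.0002 and 0.0004. Over all genes tested, 15.7% were higher in each of the 3 pairs. SLC9A8 encodes a sodium-proton exchanger of the Golgi and endosomes. It was at 190.2, 192 and 185 CPM in the RA libraries of pairs 1, 3 and 4, against 120.2, 172 and 156 CPM in their control libraries. The groups do not overlap, and the gap within the pair is widest in pair 1, whose control library is the lowest of the 6. The fitted change was 1.28-fold, or 0.36 on the log2 scale (standard error 0.09, edgeR adjusted p = 0.118). Without pair 1 the log2 fold change was 0.20, and over all alternatives the adjusted p ranged from 0.0315 to 1.00.

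SLC4A2, an anion exchanger that trades chloride for bicarbonate, was at 33.8, 36.0 and 28.3 CPM in RA libraries and 23.6, 22.1 and 25.3 CPM in control libraries. The groups again do not overlap, and the smallest gap within a pair is that of pair 4. The fit gave a log2 fold change of 0.46 (standard error 0.15) (edgeR adjusted p = 0.243), or 1.38-fold. Among the 55 expressed members, 3 had RA libraries that all lay above all control libraries. The third was SLC6A6, described with the transmitter carriers. SLC22A7, which was tested but not expressed, did so too. Over all 5041 genes tested, which include genes under 1 CPM, 4.42% did.

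SLC8A3, a sodium-calcium exchanger, was at 16.02, 16.3 and 32.02 CPM in RA libraries and 12.8, 16.2 and 24.3 CPM in control libraries, with both libraries of pair 4 the highest. SLC24A2, a potassium-dependent sodium-calcium exchanger known from cones and other neurons, was the one expressed member of its class fitted lower. It was at 3.69, 6.72 and 3.77 CPM in RA libraries and 7.37, 5.48 and 10.1 CPM in control libraries, lower in pairs 1 and 4 and higher in pair 3, with a log2 fold change of -0.72 (95% interval -1.45 to 0.02).

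SLC24A5, an exchanger of the melanosome, was at 32.4, 39.2 and 45.5 CPM in RA libraries and 25.9, 39.2 and 40.5 CPM in control libraries. SLC45A2, another carrier of pigment cells grouped with the sugars, was near 2 CPM in both groups (2.00 ± 0.20 CPM with RA and 2.12 ± 0.46 CPM in controls, SD, n = 3 each). Of the pigment epithelium markers, TYRP1, DCT and TTR had no counts in at least 5 of the 6 libraries, while PMEL, TYR, RPE65 and RLBP1 had counts in all 6. PMEL was at 1.15, 0.718 and 0.471 CPM in RA libraries and 0.295, 0.138 and 0.643 CPM in control libraries, with a 95% interval of -0.58 to 2.93 on the log2 scale. RLBP1 was at 3.55 to 4.15 CPM in RA libraries and 1.895 to 5.48 CPM in control libraries. The summed level of that list, of which 8 of 9 genes were in the table, was 50.8 to 54.9 CPM in RA libraries and 42.4 to 50.6 CPM in control libraries, most of it MITF. In the GRCg7b annotation the span of SLC24A5 overlaps that of MYEF2. Reads of that overlap could be counted for either gene or for none. What part pigmented cells or reads of the overlap have in the level of SLC24A5 was not tested.

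Carriers of metals and heme held 13 members, 12 of them expressed, and their median log2 fold change was -0.02, or -0.08 to 0.05 with a pair left out. SLC40A1 encodes ferroportin, the exporter of iron. It was at 259, 307 and 272 CPM in RA libraries and 167, 291 and 241 CPM in control libraries, higher with RA in each pair although the groups overlap. The fit gave a log2 fold change of 0.29 (standard error 0.09) (edgeR adjusted p = 0.245). Without pair 1 it was 0.12. The erythroid anion exchanger SLC4A1 had 0 counts in every library, which allows at most 0.108 to 0.154 CPM in each library by counting error alone. In the GRCg7b annotation its span overlaps that of UBTF, and the bound does not cover reads lost to such an overlap. Of the globins, HBE and HBM were also at 0 and HBZ had 2 counts, in the RA library of pair 1.

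The zinc carriers were close to level. SLC30A5, which loads zinc into the secretory pathway, was at 383, 399.8 and 345 CPM in RA libraries and 346, 423 and 357 CPM in control libraries, and its 95% interval ran from -0.15 to 0.16 on the log2 scale. The other zinc exporters SLC30A4, SLC30A6 and SLC30A7 and the zinc importers SLC39A9 and SLC39A13 had fitted log2 fold changes between -0.04 and 0.06. SLC48A1, a carrier of heme, was the one expressed member of all classes that was lower with RA in each pair. It was at 98.6, 86.6 and 80.6 CPM in RA libraries and 103, 98.3 and 87.2 CPM in control libraries, with a log2 fold change of -0.12 (95% interval -0.31 to 0.07).

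Copper and magnesium carriers were in the same class. SLC31A1, the high-affinity copper importer, was at 161, 176 and 123 CPM in RA libraries and 141, 146 and 126 CPM in control libraries. It was higher with RA in pairs 1 and 3 and slightly lower in pair 4. SLC41A2, a magnesium carrier, was at 32.4, 21.7 and 17.4 CPM in RA libraries and 29.2, 19.7 and 33.6 CPM in control libraries, so pair 4 alone was lower with RA. SLC31A2, a lower-affinity relative of SLC31A1, averaged 5.41 ± 2.12 CPM with RA and 5.77 ± 2.29 CPM in controls (SD, n = 3 each).

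In the count table, phosphate uptake was represented by SLC20A2, a sodium-phosphate cotransporter, and by SLC34A2, which was not expressed. SLC20A2 was at 52.6, 65.6 and 79.8 CPM in RA libraries and 40.7, 63.6 and 54.6 CPM in control libraries. It was higher with RA in each pair, by little in pair 3. The fit gave a log2 fold change of 0.32 (standard error 0.11) (edgeR adjusted p = 0.343). In the GRCg7b annotation its span overlaps that of SMIM19, so reads of the overlap could be counted for either gene or for none.

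Vitamin and cofactor carriers held 4 members, all expressed, with a median log2 fold change of 0.06. SLC46A3, a lysosomal member of the folate carrier family, was at 4.41, 2.92 and 6.38 CPM in RA libraries and 4.34, 1.24 and 1.85 CPM in control libraries. The values of pair 1 are nearly equal, and the difference lies in pairs 3 and 4. The fit gave a log2 fold change of 0.99 with a wide 95% interval of 0.09 to 1.89 (edgeR adjusted p = 0.493), and it was 1.52 without pair 1 and 0.58 without pair 4. The folate carriers were close to level: SLC19A1 was at 120.3 ± 18.6 CPM with RA and 118 ± 12.2 CPM in controls, and SLC46A1 at 3.60 ± 1.08 CPM with RA and 4.09 ± 1.18 CPM in controls (SD, n = 3 each). SLC23A2, which takes up vitamin C, was higher with RA in each pair by a small amount, with a log2 fold change of 0.11 (95% interval -0.08 to 0.30).

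**Figure D4:**
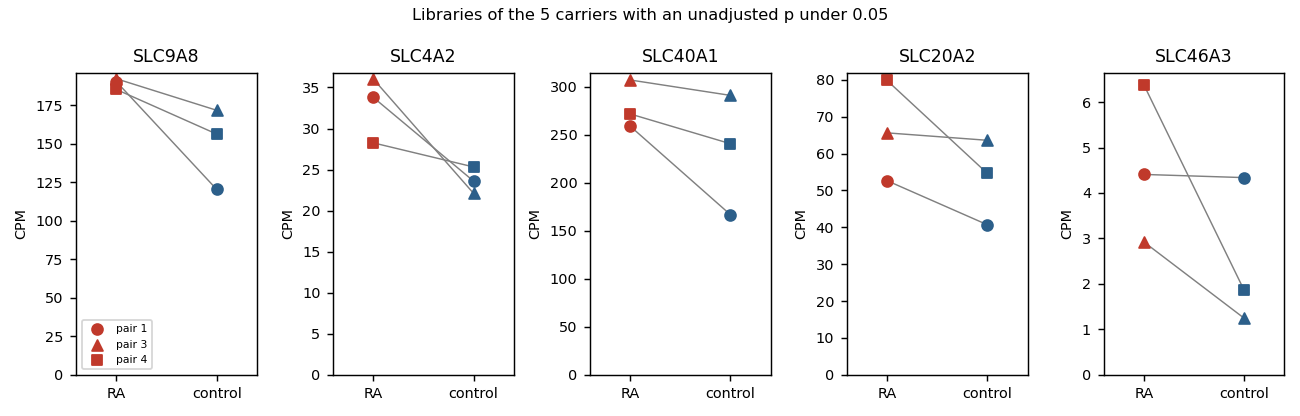
CPM of the 5 members with an unadjusted p under 0.05, with RA libraries on the left and control libraries on the right of each panel, lines joining the 2 libraries of a pair, and each axis starting at 0. Every line slopes down to the control side, steeply in pair 1 for SLC9A8 and SLC40A1 and hardly at all in pair 1 for SLC46A3.

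Amino acid carriers were the best represented by reads. SLC7A5, the light chain of an exchanger of large neutral amino acids, was at 2557, 2210.3 and 2235 CPM in RA libraries and 2171, 2076 and 2239 CPM in control libraries. Pair 1 had the widest gap and pair 4 none, and the log2 fold change was 0.11 (95% interval -0.03 to 0.25). SLC38A2, a sodium-coupled carrier of small neutral amino acids that cells induce when amino acids are scarce, was at 1867, 1953 and 1708 CPM in RA libraries and 1505, 1923 and 1767 CPM in control libraries, with a log2 fold change of 0.09. Its relative SLC38A1 averaged 281 ± 27.9 CPM with RA and 278 ± 24.2 CPM in controls, and SLC7A1, the main carrier of arginine and lysine, 371 ± 11.3 CPM with RA and 349.6 ± 28.1 CPM in controls (SD, n = 3 each).

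The remaining amino acid carriers had fewer reads. SLC6A9, the glycine carrier, was higher with RA in each pair, at 144, 127 and 126 CPM with RA and 141, 109 and 119.8 CPM in controls, and its log2 fold change was 0.11 (95% interval -0.07 to 0.29). SLC1A2, a glutamate carrier known from glia, was at 13.5, 6.10 and 6.08 CPM in RA libraries and 7.45, 8.93 and 7.57 CPM in control libraries, so the RA library of pair 1 alone was high. SLC7A2, SLC7A9 and SLC16A10, which carry cationic, cystine and aromatic amino acids, averaged 1.57 to 7.18 CPM in either group, with intervals wider than 1.5-fold. The median log2 fold change was 0.10 for the 4 SLC7 members and 0.05 for the 4 expressed members of the other amino acid and peptide class, and without pair 1 these medians were -0.02 and -0.08.

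The transmitter, choline and creatine class held 4 members, 3 of them expressed, and the vesicular and lysosomal class 5 members, 2 of them expressed. The glycine carrier SLC6A9 was grouped with the amino acid carriers. SLC6A6, the taurine carrier, was at 18.96, 19.1 and 18.1 CPM in RA libraries and 15.3, 16.2 and 16.95 CPM in control libraries. The groups do not overlap, yet the log2 fold change of 0.21 had a 95% interval of -0.14 to 0.56. SLC18A3, which loads acetylcholine into vesicles, was at 11.04, 10.9 and 6.42 CPM in RA libraries and 7.83, 7.13 and 5.26 CPM in control libraries, higher with RA in each pair (log2 fold change 0.47, 95% interval -0.05 to 0.98, edgeR adjusted p = 0.606).

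Some carriers typical of mature transmitter use had few or no counts. SLC5A7, which takes up choline at cholinergic endings, had 2 counts in the RA library of pair 4 and 0 in the other 5 libraries. The vesicular glutamate carriers SLC17A6 and SLC17A8 had at most 14 counts in any library. The carriers of noradrenaline, SLC6A2, and serotonin, SLC6A4, were detected in every library and averaged 1.403 to 2.62 CPM in either group. SLC17A5, the sialic acid carrier of the lysosome, was at 40.3 ± 6.67 CPM with RA and 38.8 ± 1.23 CPM in controls (SD, n = 3 each).

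Sugar carriers other than the 2 left out comprised 6 members, 4 of them expressed, each fitted lower with RA and each with an interval that spans 0. SLC2A8, an intracellular hexose carrier, was at 87.1, 81.5 and 98.3 CPM in RA libraries and 82.0, 88.6 and 101 CPM in control libraries. SLC2A11 and SLC2A11L1 bear related names, and if they are near-identical copies their reads may be split between them. SLC2A11 was at 1.86, 0.871 and 0.813 CPM in RA libraries and 0.632, 1.75 and 1.74 CPM in control libraries, higher with RA in pair 1 and lower in the other two. SLC5A1, the sodium-glucose cotransporter of the gut and kidney, averaged 0.997 ± 0.149 CPM with RA and 1.35 ± 0.698 CPM in controls (SD, n = 3 each). The Golgi carriers of nucleotide sugars were nearly equal in the 2 groups. SLC35A1 averaged 88.7 ± 7.10 CPM with RA and 88.7 ± 1.61 CPM in controls (SD, n = 3 each). SLC35A3 was at 92.6, 76.6 and 70.8 CPM in RA libraries and 84.4, 82.7 and 72.7 CPM in control libraries. SLC37A3, a member of the sugar phosphate family, averaged 73.9 ± 6.18 CPM with RA and 69.6 ± 2.87 CPM in controls (SD, n = 3 each).

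Monocarboxylate carriers move lactate, pyruvate and related small acids. SLC16A1, the lactate and pyruvate carrier, was at 1232, 1032 and 1253 CPM in RA libraries and 1067, 1079 and 1449 CPM in control libraries. The control library of pair 4 was the highest, and the direction differed between pairs, with log2 ratios of 0.21 in pair 1, -0.06 in pair 3 and -0.21 in pair 4. SLC16A7, another lactate and pyruvate carrier, was lower with RA mainly in pair 4, at 6.04 CPM against 10.5 CPM in the control library. SLC16A9, a carrier of carnitine, was at 96.9, 70.0 and 106 CPM in RA libraries and 120.2, 80.6 and 98.8 CPM in control libraries.

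SLC12A7, which exports potassium with chloride, was at 66.9, 50.1 and 58.6 CPM in RA libraries and 52.7, 55.5 and 47.2 CPM in control libraries, higher with RA in pairs 1 and 4. SLC26A5, known as the motor protein of cochlear hair cells, was at 60.6, 31.0 and 51.5 CPM in RA libraries and 60.5, 32.1 and 37.4 CPM in control libraries. SLC10A7 was placed by its family name in the class of fatty acids, bile acids and organic ions. It was at 148, 114 and 104 CPM in RA libraries and 147, 119.7 and 127 CPM in control libraries. SLC22A5 of the same class, the carnitine carrier, averaged 81.2 ± 7.08 CPM with RA and 78.5 ± 7.63 CPM in controls (SD, n = 3 each). Its relative SLC22A4 averaged 12.6 ± 1.18 CPM with RA and 11.5 ± 0.709 CPM in controls (SD, n = 3 each). SLC7A6OS, the symbol that names no carrier, was at 118, 139 and 133 CPM in RA libraries and 136, 128 and 129 CPM in control libraries.

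The 24 members that were not expressed comprised 6 that were tested and 18 that had too few counts. The 6 were SLC15A2, SLC38A4, SLC17A9, SLC2A2, SLC2A11L1 and SLC22A7, and none had an unadjusted p under 0.05 in the main fit. SLC2A11L1 was under it with DESeq2, with limma-voom and without pair 3, and SLC22A7 with limma-voom. SLC2A11L1 had 12, 10 and 13 counts in RA libraries and 0, 10 and 0 counts in control libraries (log2 fold change 2.36, 95% interval -0.17 to 4.90). SLC22A7, an organic anion carrier known from liver and kidney, had 22, 10 and 47 counts in RA libraries and 6, 9 and 12 counts in control libraries. Of the 18, 5 had 0 counts in every library: SLC15A1, SLC11A2, SLC4A1, SLC27A1 and SLC47A2. The other 13 had at most 44 counts in any library, the highest being SLC9A2 in the control library of pair 4. Of the 5 at 0, SLC11A2, SLC4A1 and SLC47A2 have spans that overlap another gene in GRCg7b, so reads there may be shared or lost.

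The pairs differed in how many members were higher with RA. In pair 1, 47 of the 55 expressed members were higher with RA, or 85.5%, where 50.2% of all genes tested were higher in that pair. In pair 3, 29 of 55 were higher (52.7%, against 49.5% of all genes), and in pair 4, 21 of 55 (38.2%, against 50.4%). The median log2 ratio of the expressed members stood at 0.21 for pair 1, 0.00 for pair 3 and -0.05 for pair 4, while the median over all genes was 0.00 in each. The control library of pair 1 came from 57000 sorted cells and 52.8 ng of total RNA, the least of the 6, and the RA library of that pair from 98000 cells and 106.7 ng. The other 4 libraries came from 161000 to 200000 cells. The part of cell number and RNA amount in the ratios of pair 1 was not tested.

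In the 3 pairs together, 13 of the 61 members tested were higher with RA in each pair and 1 was lower in each. Over all genes tested the shares were 15.7% higher and 14.3% lower. The 13 include 2 members that were not expressed, and the 11 others are SLC9A8, SLC4A2, SLC24A5, SLC8A3, SLC40A1, SLC20A2, SLC46A3, SLC23A2, SLC6A6, SLC6A9 and SLC18A3. For SLC24A5 and SLC8A3 the log2 ratio of pair 3 was 0.00 to 2 decimals, and with scaling by library size only the count of 13 was 11.

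Differences between the embryo pairs were tested in the same fit, by an edgeR quasi-likelihood F-test of the pair terms. Of the 61 members tested, 11 differed between pairs at an adjusted p under 0.05, or 18.03%, against 13.6% of all genes tested. Of these, 10 are named here, after their values were seen. SLC26A5 was lowest in both libraries of pair 3 (edgeR adjusted p = 0.00338). SLC47A1, an exporter of organic cations, was at 84.5, 38.9 and 39.9 CPM in RA libraries and 66.0, 53.8 and 46.0 CPM in control libraries, highest in both libraries of pair 1 (adjusted p = 0.00692). SLC8A3 was highest in pair 4 (adjusted p = 0.00758), and SLC23A2 was lowest there, at 78.7 CPM with RA and 69.4 CPM in the control library (adjusted p = 0.00475).

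The other 6 were SLC16A9, SLC40A1, SLC20A2, SLC16A1, SLC24A5 and SLC10A7, with adjusted p-values from 0.0178 to 0.0492. SLC40A1, SLC20A2 and SLC24A5 each had their lowest value in the control library of pair 1.

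**Figure D5:**
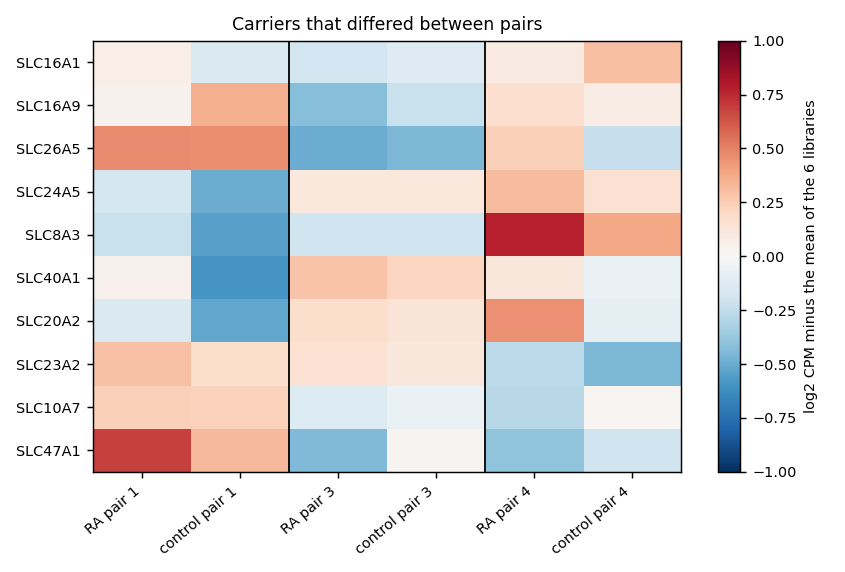
Log2 CPM of 10 of the 11 members that differed between pairs, minus the mean of the 6 libraries, with the RA library left of the control library in each pair and black lines between pairs. SLC26A5 is blue in both libraries of pair 3, SLC47A1 is red in both libraries of pair 1 and SLC8A3 red in both libraries of pair 4.

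The pumps whose gradients drive many carriers, and the amino acid response, were read from lists of related genes. Of the sodium-potassium pump, 6 of 7 listed subunits were in the table and 3 were tested, with 0 called and 2 at an unadjusted edgeR p under 0.05. ATP1B1, a beta subunit, was at 232, 438 and 322 CPM in RA libraries and 221, 353 and 287 CPM in control libraries (log2 fold change 0.18, edgeR adjusted p = 0.461). It was higher with RA in each pair, although the groups overlap. Of the vacuolar proton pump, 17 genes were tested, with 0 called, 1 at an unadjusted p under 0.05 (ATP6V0A1, log2 fold change 0.18) and a median log2 fold change of -0.04. Of the amino acid response list, 7 of 14 genes were in the table and tested, with 0 called, 2 at an unadjusted p under 0.05 and a median log2 fold change of -0.09. The 2 differ in direction. CEBPB, a transcription factor, was at 281, 271 and 303 CPM in RA libraries and 245, 227 and 254 CPM in control libraries, higher in each pair with no overlap (log2 fold change 0.24, edgeR adjusted p = 0.186). ASNS, asparagine synthetase, was at 2260, 2148 and 1917 CPM in RA libraries and 2412, 2345 and 2186 CPM in control libraries, lower in each pair (log2 fold change -0.14, edgeR adjusted p = 0.55).

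The authors' deposited table lists 57 of the members, from the same libraries. The smallest adjusted p of a member in the authors' deposited table was 0.661, that of SLC9A8, and 3 members there had an unadjusted p under 0.05, each also among the 5 found here. In the authors' deposited table the log2 fold change of SLC9A8 was 0.35 and that of SLC4A2 was 0.46.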

How the data were processed

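RNA sequencing of 6 libraries was analysed from the table of raw counts per gene symbol that the authors deposited, whole numbers with no normalization. Per the labels' protocols, total RNA was amplified with an ultra-low-input kit and read as single reads of 100 bases. The submitters' processing notes name STAR 2.5.3a, HTSeq 0.6p1, edgeR 3.18.1 and the build galGal5, without settings. The authors' deposited table of a paired comparison gives log2 fold changes and p-values, per the file headers, and its test is not given in the sources used here. The deposited CPM table was not used.

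Counts were filtered with filterByExpr (minimum count 10, scaled to the median library, in 3 libraries, with a total of 15), scaled by TMM and fitted with edgeR 4.0.16 (R 4.3.3) by the quasi-likelihood test, with the pair as a block and Benjamini-Hochberg adjustment over 5041 genes. Standard errors were taken from the F statistic, and 95% intervals from it with its moderated degrees of freedom. Log2 ratios within pairs used a prior count of 2. Alternatives were DESeq2 1.42.0, limma-voom (limma 3.58.1), 3 other scalings, 2 other filters, robust moderation, other thresholds, no block, and each pair left out. The fit was checked on simulated data with the same dispersion for every gene and no differences between pairs. That check therefore does not cover the pair differences or the uneven variation of the real libraries.

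The pairing comes from the series text on opposite eyes. The deviations of paired libraries from their group means correlated at 0.29 in pair 1, 0.25 in pair 3 and 0.34 in pair 4, and no 2 replicates differed by as little as sampling noise (smallest chi-square per degree of freedom 42.6). The preparation is not stated to keep strand, and 26 of the 55 expressed members have spans that overlap another gene in GRCg7b, so their reads may be shared or lost. All 79 symbols matched RefSeq's GRCg7b list, used here for names and neighbours only. Reads carry no molecular identifiers, so a floor or interval from counts covers counting error alone. A floor is 3 counts.

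The members, substrate classes and lists were chosen with earlier results of these data known, and classes follow family names. Named members are those called, those with an unadjusted p under 0.05 that moved one way in 3 pairs, and in each class the one with the most reads and the one with the largest change among those that moved one way. Others are named with their values as a description, after these were seen. The test between pairs was added after seeing the data. Some results, which the counts include, are not reported here.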

Additional observations from a re-analysis of the deposited data

How the results depend on the processing

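The count of 0 members called held under all settings tried except DESeq2 and no filter on low counts, where it was 1, SLC9A8 (adjusted p = 0.043 and 0.0315, at log2 fold changes of 0.36 and 0.36). The genes called in all, 54, were 85 under each of these settings, and the fit with no replicate block called 7. That fit left 2 members with an unadjusted p under 0.05, both higher, against 5, and changed no other call of a member. The cause was not tested.

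Members lower at an unadjusted p under 0.05 numbered 0, but 1 under upper-quartile scaling, 1 with no filter, 1 with over 1 CPM in at least 3 libraries and 1 under limma-voom. Under each of these settings it was SLC24A2, which in the main fit had an unadjusted edgeR p of 0.0543. With each pair left out in turn the range was 1 to 2 for members lower, 36 to 81 for genes called, 5 to 9 for members that differed between pairs and 389 to 520 for genes that did. Without pair 1 the 2 members lower were SLC16A1 and SLC47A1, and without pair 3 the members that differed between pairs were 5. The 11 members that differed between pairs were 8 to 13 under the other settings.

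With a pair left out, the median log2 fold change of the expressed members, 0.01, lay between -0.05 and 0.10. That of the monocarboxylate class, -0.08, lay between -0.0958 and 0.0660, and that of the transmitter class, -0.09, between -0.25 and 0.28. Other class medians also changed sign with a pair left out, over -0.0188 to 0.178 for SLC7, -0.0750 to 0.110 for other amino acid and peptide carriers, -0.424 to 0.0732 for hexoses, -0.0799 to 0.0480 for metals and -0.144 to 0.0856 for organic ions, as did the nucleotide sugar class (-0.0715 to 0.0479). Fits without a pair have fewer residual degrees of freedom. Named members near 0 changed sign when a pair was left out, over ranges of -0.139 to 0.0794 for SLC16A1, -0.0518 to 0.157 for SLC17A5, -0.0231 to 0.0513 for SLC19A1, -0.433 to 0.281 for SLC1A2, -0.0789 to 0.0254 for SLC2A8, -0.0670 to 0.0489 for SLC30A5, -0.0715 to 0.0471 for SLC35A1, -0.0150 to 0.174 for SLC38A2 and -0.0789 to 0.0761 for SLC7A6OS. SLC35A1 was also above 0 under upper-quartile scaling (0.0041) and limma-voom (0.0012). No member with an unadjusted p under 0.05 changed sign. Precision was lowest for the 16 expressed members at 10 CPM or less, and how depth and variation between pairs share in this was not tested.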
